A study of Mus musculus with 12 samples.

Results

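The complement genes C3, Cfb, C1ra and Cd55 encode a central component, an alternative pathway component, a classical pathway protease and a membrane regulator. They were taken by gene symbol, each had 1 row, and they are 4 of 20819 genes in the deposited table. The cells were tubuloids, which are 3-dimensional cultures in Matrigel of tubular epithelial cells from the renal cortex of wildtype mice, 4 mice in all. Tubuloids received myoglobin with 100 nM dexamethasone, myoglobin alone, or vehicle, and messenger RNA was sequenced after 12 h, with 4 libraries per treatment. Myoglobin, the oxygen-binding haem protein of muscle, served to injure the tubules. Dexamethasone is a synthetic glucocorticoid. The labels give no age, sex or strain. They do not tie a library number to a mouse, so p-values measure only the spread between these samples. No group with dexamethasone alone is among the samples. The cultures lack liver, plasma and blood supply.

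Complement is a cascade of plasma proteases that marks and opens foreign or damaged cells. Its classical branch starts when C1q recruits the proteases C1r and C1s, its alternative branch amplifies deposited C3 with factor B, and all branches meet at the cleavage of C3. Host cells hold the cascade back with surface regulators such as CD55, which takes apart the enzymes that cleave C3. The liver makes most of the circulating proteins, and tubular cells of the kidney are known to make C3 and factor B locally.

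The values are whole numbers that the authors scaled for the depth of each library, and are called normalised values here. Their sums ran from 5.34 to 5.73 M in libraries with myoglobin and dexamethasone, from 5.32 to 5.35 M in those with myoglobin and from 5.25 to 5.29 M in vehicle libraries. The reads before scaling were estimated from the steps between low values. They came to 3.26 to 5.54 M per library with myoglobin and dexamethasone, to 5.33 to 5.93 M for myoglobin alone and to 5.51 to 5.87 M for vehicle. The shallowest library was number 4 of myoglobin with dexamethasone, in which 2179 genes were listed at 0 against 1051 to 1544 in the other 11 libraries. Hmox1, the haem oxygenase, rose by 2.01 ± 0.062 (log2 fold change ± SE, limma adjusted p 9.33e-12) with myoglobin against vehicle. Fkbp5, a glucocorticoid target, rose by 1.19 ± 0.073 (limma adjusted p 1.53e-07) when dexamethasone was added to myoglobin. All 10 tubular epithelium markers had reads, but Cubn, the proximal tubule endocytic receptor, averaged 0.25, 0.75 and 2.75 in the myoglobin with dexamethasone, myoglobin and vehicle groups.

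The stretches just before the transcription starts of C3 and Cd55 are shown because C3 was the most abundant of the 4 genes and Cd55 was the one with no call in any comparison. Each runs 5′ to 3′ on the minus strand and covers the 250 bases before the RefSeq start in build GRCm38.p6, with capitals for the motif matches found on either strand. The C3 stretch is chr17:57228137-57228386 and the Cd55 stretch is chr1:130462745-130462994.
C3: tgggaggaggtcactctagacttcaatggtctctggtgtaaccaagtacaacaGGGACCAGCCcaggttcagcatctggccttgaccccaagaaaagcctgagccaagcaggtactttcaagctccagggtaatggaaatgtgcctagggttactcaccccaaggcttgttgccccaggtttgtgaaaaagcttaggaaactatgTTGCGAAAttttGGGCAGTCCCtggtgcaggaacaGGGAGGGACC
Cd55: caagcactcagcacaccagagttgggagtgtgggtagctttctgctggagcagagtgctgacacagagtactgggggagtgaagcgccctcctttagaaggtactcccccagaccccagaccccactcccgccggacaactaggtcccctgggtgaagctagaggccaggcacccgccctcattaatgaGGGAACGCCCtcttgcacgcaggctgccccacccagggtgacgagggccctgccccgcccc
The NF-kB motif searched was GGGA and CC with any 4 bases between them, and the IRF motif was GAAA and GAAA with any 2 bases between them. The STAT motif was TTC and GAA with any 3 bases between them, the C/EBP motif TTGC and AA with any 2, and the glucocorticoid receptor motif ACA and TGT with any 3. C3 held 3 NF-kB matches, beginning 197, 33 and 10 bases before the start, the one at 33 on the opposite strand. It also held 1 C/EBP match, TTGCGAAA, beginning 45 bases before the start. None of these matches overlapped another. Cd55 held 1 NF-kB match, GGGAACGCCC, beginning 61 bases before its start. The C1ra window held none of the 5 motifs. That window, 124512371 to 124512620, lay mostly inside the gene as placed here, which begins at 124512405, because the RefSeq start lies further in. Of 32851 mouse promoter windows of the same length, 17.6% held the NF-kB letters, 7.02% STAT, 9.56% C/EBP, 2.98% IRF and 5.84% the glucocorticoid receptor letters. RefSeq windows matched 3 of the 4 genes. A match here is a run of letters and not a measured binding site.

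With myoglobin, 2 of the 4 genes rose against vehicle, Cfb by a fitted 4.98-fold and C1ra by 2.31-fold, while the Cd55 means lay within 62.3 to 65.8 in all treatments. C3 lay higher with myoglobin by a fitted 1.18-fold, with a p that missed the threshold. Adding dexamethasone to myoglobin left all 4 without a call when the libraries were taken as unpaired. In the comparison of myoglobin with vehicle, 18.3% of the 14558 tested genes passed an adjusted p of 0.05 in either direction, 8.71% as higher and 9.62% as lower. The share was 6.98% for myoglobin with dexamethasone against myoglobin, 3.08% higher and 3.9% lower, and 28.6% for myoglobin with dexamethasone against vehicle, 13.9% higher and 14.6% lower. The libraries of the groups did not overlap for 25% of the tested genes with myoglobin against vehicle, 12.9% higher and 12.1% lower. This share was 13.2% for both agents against myoglobin, 7.03% higher and 6.19% lower, and 28.6% for both agents against vehicle, 15.3% higher and 13.3% lower. The comparisons share libraries.

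**Figure D1:**
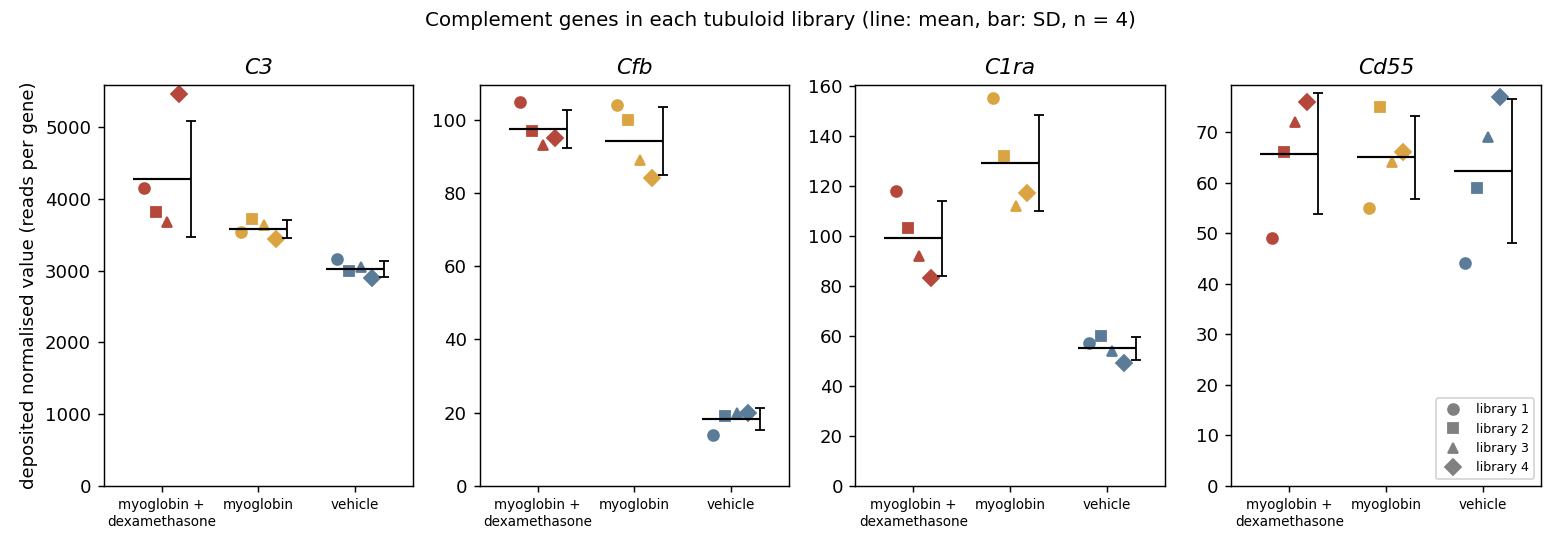
Normalised values of C3, Cfb, C1ra and Cd55 (vertical axes, reads per gene after scaling, each starting at 0) in the 4 libraries of each treatment (horizontal axis), with a line for the mean and a bar for the SD. Cfb sat between 93 and 105 with both agents and 84 to 104 with myoglobin, against 14 to 20 with vehicle, and the C3 library at 5462 stood above all others.

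C1ra encodes C1r, the protease that C1q activates and that in turn cleaves C1s (ENSMUSG00000055172, chromosome 6, 124512405 to 124523443 on the plus strand, mm10). Its normalised values were 118, 103, 92 and 83 with myoglobin and dexamethasone, 155, 132, 112 and 117 with myoglobin, and 57, 60, 54 and 49 with vehicle. Every library with myoglobin, with or without dexamethasone, lay above every vehicle library, and the 2 myoglobin treatments overlapped. The means were 99 ± 15.1, 129 ± 19.3 and 55 ± 4.69 (SD, n = 4 each). C1ra rose by 1.21 ± 0.127 on the log2 scale with myoglobin against vehicle (95% interval 0.94 to 1.48, limma adjusted p 5.76e-06). It rose by 0.83 ± 0.127 with both agents against vehicle (limma adjusted p 1.86e-04). Between myoglobin with dexamethasone and myoglobin alone the difference was -0.38 ± 0.127 (95% interval -0.65 to -0.11), and it did not pass in the unpaired fit (limma adjusted p 0.0896). With the library number as a block it passed (limma adjusted p 0.0147), but the labels do not tie a number to a mouse. C1ra has a near copy, C1rb, not analysed here, which holds 48.0% of the 50-base stretches of the C1ra transcripts, so reads from such stretches could come from either gene.

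C1s1, which encodes the protease C1s that C1r cleaves, had the same shape. Its values were 190, 196, 173 and 137 with both agents, 276, 234, 194 and 204 with myoglobin, and 125, 92, 119 and 89 with vehicle. C1s1 rose by 1.09 ± 0.140 with myoglobin against vehicle (limma adjusted p 4.44e-05), and the difference when dexamethasone was added was -0.38 ± 0.140 (limma adjusted p 0.12). This difference passed only with the library number as a block (limma adjusted p 0.0165). C1s2, its neighbouring copy, differed by -0.065 ± 0.091 with myoglobin against vehicle (limma adjusted p 0.690), although 21.9% of the C1s1 stretches of 50 bases occur in C1s2. The recognition genes C1qa, C1qb and C1qc, which are mostly made by macrophages, had 0 to 4 in every library and were not tested.

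C3 encodes the protein on which all branches converge (ENSMUSG00000024164, chromosome 17, 57203970 to 57228136 on the minus strand). By mean normalised value it ranked 6 of 20819 genes. The highest value of any gene in a library ran from 4592 to 5857. Whether the processing held down the values of densely read genes was not tested. The rank and fold changes of C3 are uncertain to that extent. The C3 values were 4154, 3819, 3681 and 5462 with myoglobin and dexamethasone, 3537, 3721, 3643 and 3435 with myoglobin, and 3165, 2990, 3045 and 2903 with vehicle. Both myoglobin treatments lay wholly above vehicle and overlapped each other through library 3 of the combined treatment. The means were 4279 ± 813, 3584 ± 125 and 3026 ± 110 (SD, n = 4 each). C3 rose by 0.48 ± 0.092 on the log2 scale with both agents against vehicle (95% interval 0.29 to 0.68, limma adjusted p 0.00115). The difference of myoglobin from vehicle was 0.24 ± 0.092 (95% interval 0.048 to 0.44, limma adjusted p 0.0823). That of myoglobin with dexamethasone from myoglobin was also 0.24 ± 0.092 (95% interval 0.042 to 0.43, limma adjusted p 0.142).

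Library 4 of myoglobin with dexamethasone weighed on the C3 results. Without it, C3 differed by 0.24 ± 0.038 between myoglobin and vehicle and passed (limma adjusted p 2.17e-04). That library is in neither group, so the estimate stayed and the SE, from a spread shared by all groups, fell. The same omission left 0.11 ± 0.041 for the addition of dexamethasone (limma adjusted p 0.101) and 0.36 ± 0.041 for both agents against vehicle (limma adjusted p 1.32e-05). It changed neither of these calls. The highest C3 value was in that library, although the C3 reads estimated there, 3108, were the fewest of the group, in which the other libraries had 3708 to 3817. C3 is densely read, at a mean of 0.687 estimated reads per exonic base. Among the 294 tested genes with at least 0.3 reads per base, the median gene deviated by 0.40 (log2) in that library from the other 3 of its group, and C3 deviated by 0.49. The median deviation was -0.21 among 4472 genes below 0.03 reads per base and 0.050 among 9785 genes between. The dense genes had a median difference of 0.15 for myoglobin with dexamethasone against myoglobin, 0.052 without that library, 0.046 for myoglobin against vehicle and 0.20 for both agents against vehicle. The part of read density in the C3 values was not tested.

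**Figure D2:**
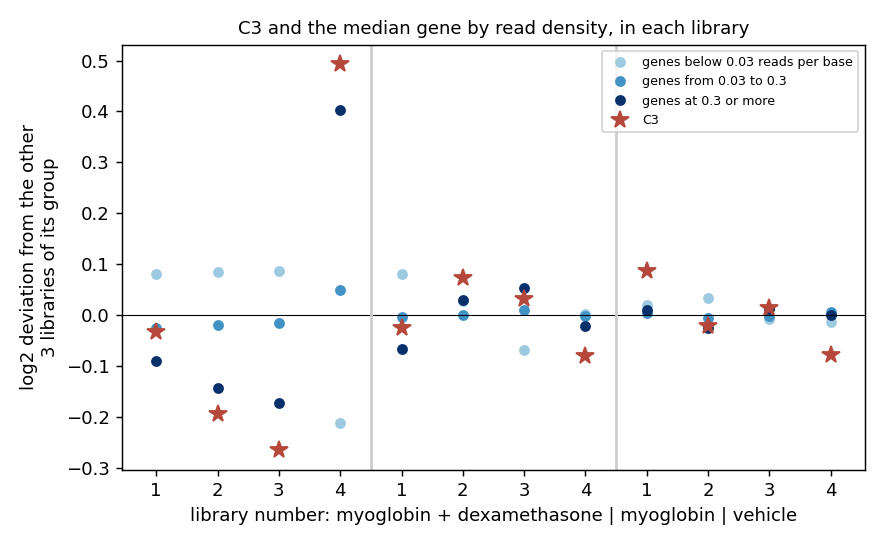
Deviation on the log2 scale (vertical axis) of each library from the other 3 of its treatment (horizontal axis, library number), for C3 as a star and for the median gene of 3 classes of estimated reads per exonic base as circles. In library 4 of myoglobin with dexamethasone C3 stood at 0.49 and the median gene with at least 0.3 reads per base at 0.40, while the median gene below 0.03 stood at -0.21.

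Cfb encodes factor B, which joins deposited C3 to form the alternative pathway enzyme (ENSMUSG00000090231, chromosome 17, 34856374 to 34862518 on the minus strand). Its values were 105, 97, 93 and 95 with myoglobin and dexamethasone, 104, 100, 89 and 84 with myoglobin, and 14, 19, 20 and 20 with vehicle. No myoglobin-treated library came near the vehicle libraries, and the values with and without dexamethasone were interleaved. The means were 97.5 ± 5.26, 94.3 ± 9.32 and 18.3 ± 2.87 (SD, n = 4 each). The rise was 2.32 ± 0.131 on the log2 scale with myoglobin against vehicle (95% interval 2.04 to 2.59, limma adjusted p 6.21e-09), a fitted 4.98-fold. By size of fold change it ranked 27 from the top of the 14558 genes tested. With both agents against vehicle the rise was 2.37 ± 0.131 (limma adjusted p 4.61e-09). Dexamethasone added to myoglobin gave 0.052 ± 0.131 (limma adjusted p 0.850), with a 95% interval of -0.23 to 0.33. This interval holds changes of either sign, the largest 0.33. The annotation holds a transcript, Gm20547, on the same strand that runs on into C2 and shares 2246 of the 2825 exonic bases of Cfb. How the authors' counting treated such bases is not given in the sources used here, so the values of Cfb and C2 are uncertain to that extent.

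C2, the classical and lectin pathway counterpart of factor B, lies next to Cfb and rose as well. Its values were 24, 21, 26 and 12 with both agents, 26, 34, 24 and 25 with myoglobin, and 14, 10, 12 and 9 with vehicle. The library at 12 in the combined treatment, number 4 and the shallowest, overlapped the vehicle libraries. Its estimated C2 reads were 6.83, and it also held the lowest values of C1ra, C1s1 and Serping1 in that treatment. The part of its depth in these values was not tested. C2 rose by 1.21 ± 0.242 with myoglobin against vehicle (limma adjusted p 0.00215) and by 0.79 ± 0.242 with both agents against vehicle (limma adjusted p 0.0234). The Cfb and C2 transcripts share 0 stretches of 50 bases with each other.

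Cd55 encodes decay-accelerating factor, a lipid-anchored surface protein that breaks up the C3-cleaving enzymes of each branch (ENSMUSG00000026399, chromosome 1, 130439027 to 130462744 on the minus strand). Its values were 49, 66, 72 and 76 with myoglobin and dexamethasone, 55, 75, 64 and 66 with myoglobin, and 44, 59, 69 and 77 with vehicle. The treatments overlapped fully, and the library numbered 1 was the lowest in each. The means were 65.8 ± 11.9, 65 ± 8.21 and 62.3 ± 14.2 (SD, n = 4 each). The difference of myoglobin from vehicle was 0.083 ± 0.175 (limma adjusted p 0.802), with a 95% interval of -0.29 to 0.46. That of myoglobin with dexamethasone from myoglobin was 0.0057 ± 0.175 (limma adjusted p 0.990), with an interval of -0.37 to 0.38. Without a call, Cd55 can still have moved by up to these bounds. Its copy Cd55b, not analysed here, holds 8.0% of the Cd55 stretches of 50 bases. An antisense transcript, Gm16083, overlaps its 5′ end by 102 exonic bases. The kit marks strand, and the strand setting of the counting is not given in the sources used here.

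The balance between these genes was also compared within libraries, which removes the scaling but not a shift by read density. The log2 ratio of Cfb to C3 was -5.24 ± 0.127 with myoglobin and -7.31 ± 0.279 with vehicle (SD, n = 4 each, exact two-sided permutation p 0.0286). This is the smallest p that 4 against 4 libraries allow, and it became 0.114 after adjustment over the 4 ratio comparisons. The ratio was higher in 4 of 4 myoglobin libraries than in any vehicle library, by 2.07 on average. With dexamethasone added to myoglobin it was -5.42 ± 0.270, a difference of -0.19 (exact p 0.314, adjusted 0.419). The lowest of these ratios, -5.83, was in library 4, where C3 deviated by 0.49 and Cfb by -0.047 from their group. The difference ran from -0.23 to -0.051 over omitted libraries, and was smallest without library 4. The log2 ratio of Cd55 to C3 ran from -6.38 to -5.66 with both agents, from -5.98 to -5.61 with myoglobin and from -6.14 to -5.22 with vehicle. Its differences were -0.16 for myoglobin against vehicle (exact p 0.457, adjusted 0.457) and -0.23 for both agents against myoglobin (exact p 0.229, adjusted 0.419). The latter ran from -0.35 to -0.11 over omitted libraries.

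Levels were compared between genes only per exonic length, as normalised value per kb of exon. C3 came first of the 40 complement genes in the table in each treatment, at 832 ± 158, 697 ± 24.2 and 588 ± 21.3 per kb with both agents, myoglobin and vehicle (SD, n = 4 each). Whether the values of densely read genes such as C3 were held down was not tested, so its distance to other genes is uncertain. Clusterin, Clu, a soluble inhibitor of the terminal complex, followed at 592, 509 and 518 per kb, and Cfi, the protease that inactivates deposited C3, at 357, 323 and 357 per kb. The C3 and Clu libraries did not overlap with myoglobin or with vehicle. With both agents they overlapped only through library 4, in which Clu stood at 794 and C3 at 1062 per kb. C1ra stood at 33.2, 43.3 and 18.5 per kb, and Cfb at 34.5, 33.4 and 6.46 per kb. Cfb ranked 13 and 14 of the 40 with both agents and with myoglobin, against 22 with vehicle, where its libraries overlapped those of its neighbours Cpn1 and Fcna. Cfb and C1ra overlapped with both agents and not with myoglobin alone. The bases that Cfb shares with Gm20547, and C1ra with C1rb, leave their levels per kb and ranks uncertain. Cd55 ranked 17, 17 and 16 at 13.5, 13.4 and 12.8 per kb, and its libraries overlapped those of the next lower gene in each treatment.

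**Figure D3:**
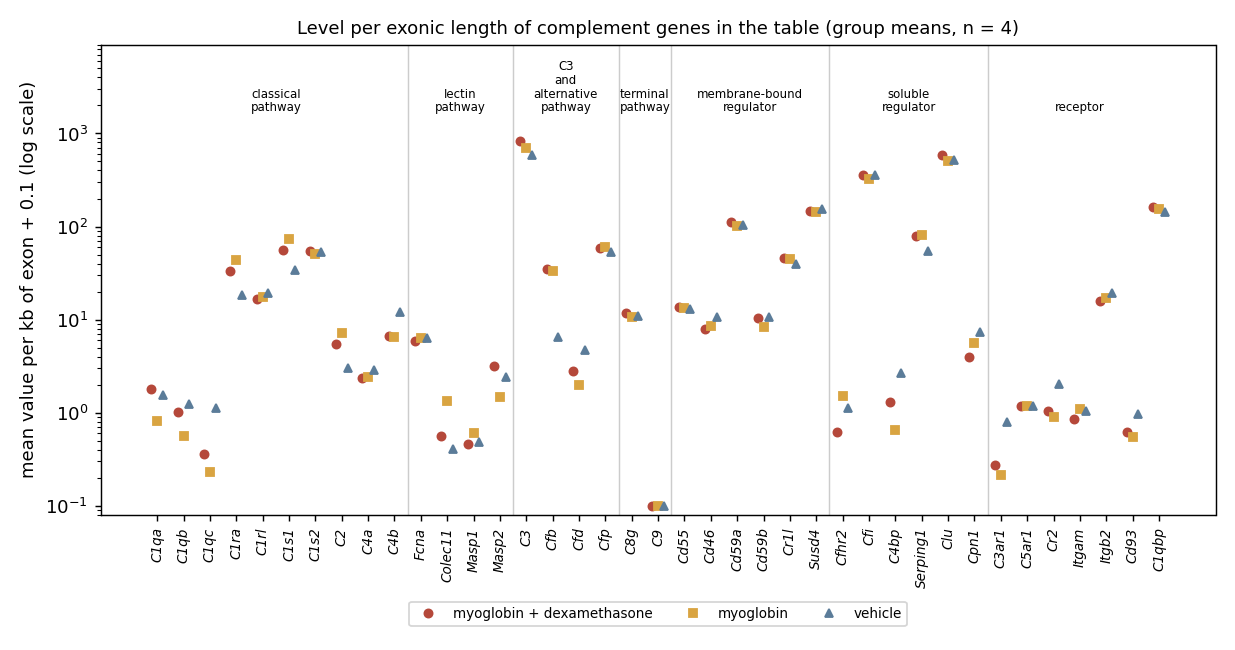
Group mean of the normalised value per kb of exon plus 0.1 (vertical axis, log scale, n = 4) for complement genes in the table (horizontal axis, grouped by role), with circles for both agents, squares for myoglobin and triangles for vehicle. C3 stood highest at 832, 697 and 588 per kb, and Cfb stood at 34.5 and 33.4 with the myoglobin treatments, against 6.46 with vehicle.

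The wider complement list held 62 genes, of which 40 had a row and 27 had values high enough to test. With myoglobin against vehicle, 6 rose, 4 fell and 17 did not pass, with a median difference of -0.051 beside 0.0026 over all tested genes. Of all 14558 tested genes, 8.71% passed as higher and 9.62% as lower in this comparison. C4bp and Cr2, among those that fell, met the filter on low values through their vehicle libraries, so the filter favoured their falls. Among classical pathway genes, C1ra, C1s1 and C2 rose, while C4b, the component that C1s cleaves, fell by 0.89 ± 0.131 (limma adjusted p 1.62e-04). C4b had 44, 32, 36 and 37 with both agents, 40, 38, 31 and 36 with myoglobin, and 68, 64, 69 and 70 with vehicle. All its myoglobin-treated libraries lay below all its vehicle libraries. C4b has a near copy in C4a, of which 30.6% of the 50-base stretches occur in C4b, and the C4a call did not pass.

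Soluble regulators went both ways. Serping1, the inhibitor that inactivates C1r and C1s, rose by 0.57 ± 0.125 with myoglobin against vehicle (limma adjusted p 0.00447). Its values were 218, 177, 210 and 132 with both agents, 200, 190, 171 and 197 with myoglobin, and 140, 123, 128 and 120 with vehicle. C4bp, which binds C4 fragments and speeds their decay, fell by 1.98 ± 0.298 (limma adjusted p 1.89e-04) from a low base. It had 11, 5, 11 and 5 with both agents, 4, 5, 3 and 3 with myoglobin, and 16, 20, 17 and 17 with vehicle. C4bp met the filter of 10 in 4 libraries through vehicle, where it was high, and no myoglobin library reached 10. The filter thus favoured a fall. With no filter on low values C4bp also passed (-1.98, limma adjusted p 2.57e-04).

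Of the membrane regulators, Cr1l, the rodent regulator known as Crry, rose by 0.18 ± 0.045 with myoglobin against vehicle (limma adjusted p 0.00889). Its values were 491, 460, 473 and 470 with both agents, 452, 477, 488 and 456 with myoglobin, and 429, 395, 394 and 430 with vehicle. Both myoglobin treatments lay above vehicle in every library. Susd4 fell by 0.13 ± 0.034 (limma adjusted p 0.0123), with means of 566, 548 and 601. Cd59a, which blocks the terminal pore, averaged 202, 186 and 188 without a call. Among receptors, Cr2, the receptor for C3 fragments known from B cells, fell by 1.11 ± 0.284 (limma adjusted p 0.0118), with 5 to 11 with both agents, 5 to 8 with myoglobin and 12 to 22 with vehicle.

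Against vehicle, both agents together gave 7 that rose, 5 that fell and 15 that did not pass, with a median of 0.088 beside 0.0017 over all tested genes. Of all tested genes, 13.9% passed as higher and 14.6% as lower in this comparison. C3 joined the complement genes that rose. Beside C4b, C4bp and Cr2, Cd46 and Cpn1 were called as lower, by 0.42 ± 0.137 (limma adjusted p 0.0321) and 0.95 ± 0.338 (limma adjusted p 0.0463). C4bp and Cr2 met the filter through vehicle, so it favoured their falls here too. Cd46 is a surface cofactor for the inactivation of C3 fragments, and Cpn1 is a subunit of the carboxypeptidase that blunts the released complement peptides. The count of 5 that fell became 2 without vehicle library 2. It became 3 without vehicle library 1, 3 or 4, or without library 2 or 3 of the combined treatment. Over all genes in this comparison 2029 were called as higher and 2132 as lower, which became 1565 and 2648 with library totals set equal and 1590 and 2602 with upper-quartile scaling.

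Dexamethasone added to myoglobin gave 0 calls among the 27 genes by limma with the libraries unpaired, where 6.98% of all tested genes passed. With the library number as a block, C1ra and C1s1 passed as lower, where 749 of all tested genes passed as higher and 1039 as lower. At an unadjusted p of 0.05, 5 of the 27 passed: C3, C4bp and Masp2 on the higher side, C1ra and C1s1 on the lower side. At that threshold 22.2% of all 14558 tested genes passed, 11.2% on the higher and 11% on the lower side, so 5 of 27 is near the background. Masp2, a lectin pathway protease, differed by 0.99 ± 0.352 (limma adjusted p 0.110), with 11, 5, 11 and 14 with both agents and 5, 4, 3 and 6 with myoglobin. C4bp differed by 0.86 ± 0.298 (limma adjusted p 0.10), and its libraries at 5 overlapped those with myoglobin alone.

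**Figure D4:**
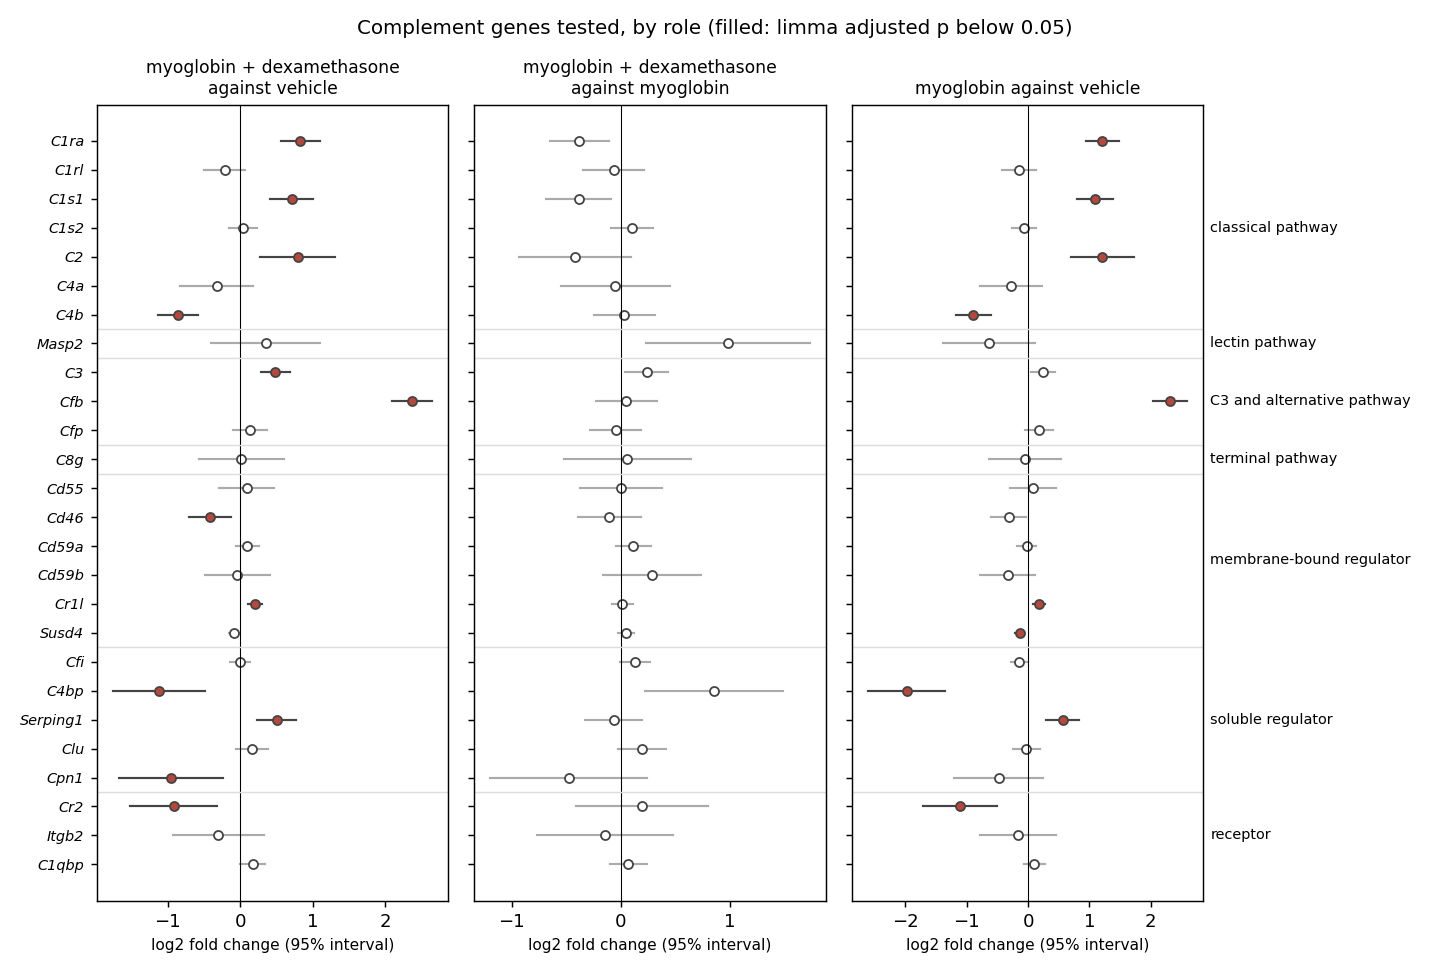
Log2 fold change with its 95% interval (horizontal axis) of complement genes tested, grouped by role (vertical axis), for both agents against vehicle, both agents against myoglobin and myoglobin against vehicle. Filled circles mark a limma adjusted p below 0.05, of which there are 12, 0 and 10 in the 3 panels, with Cfb farthest to the right in the panels against vehicle at 2.37 and 2.32.

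The remaining 13 genes in the table reached at most 12 in any library and were not tested. They include Cfd, the protease that activates factor B, which averaged 2.5, 1.75 and 4.25 with both agents, myoglobin and vehicle. C9, the pore-forming last component, was listed at 0 in all 12 libraries, and the receptors C3ar1 and C5ar1 reached at most 6.

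Other cell types had a trace in the cultures, and the share of cells and the RNA per cell cannot be told apart in bulk libraries. The summed value of the 8 fibroblast and pericyte markers was 167 to 262 with both agents, 286 to 330 with myoglobin and 386 to 453 with vehicle. Rgs5, a pericyte gene, carried much of it, with means of 127, 171.5 and 267, and without it the other 7 summed to 74 to 107, 114 to 171 and 124 to 183. With myoglobin against vehicle, 4 of the 8 markers had higher and 4 had lower means, Dcn among the higher at 28.8 against 18.3. Of its 6 tested markers 0 rose and 4 fell with both agents against vehicle, and 2 fell with myoglobin against vehicle. The 9 leukocyte markers summed to 553 to 649, 514 to 626 and 586 to 718, of which Ptprc alone averaged 423, 342 and 447. Without Ptprc the other 8 summed to 140 to 205, 182 to 286 and 151 to 250. With myoglobin against vehicle, 6 of the 9 leukocyte markers had higher and 3 had lower means. The 7 endothelial markers summed to 92 to 110, 90 to 121 and 124 to 134, and Tie1 was listed at 0 in every library of the combined treatment. The 5 podocyte markers summed to 612 to 723, 569 to 799 and 666 to 991. The 10 tubular markers summed to 9753 to 12850, 9343 to 9731 and 9686 to 10141. The part of these cells in the values of the complement genes was not tested.

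The genes whose patterns lay nearest were found by the root mean square difference, over the 12 libraries, of log2 values relative to each gene's own vehicle mean, among 11671 genes. Nearest to C3 were Cp, the ferroxidase ceruloplasmin, at 0.0483 and Tmem176b at 0.0490. Cp averaged 3769, 3313 and 2768 with both agents, myoglobin and vehicle. Nearest to Cfb were Nod2, a sensor of bacterial cell wall fragments, at 0.111 and Tmem238l at 0.123. Nod2 averaged 314.5, 297 and 59.3. Nearest to C1ra were Il17rd, a member of the IL-17 receptor family, at 0.118 and Tmem35a at 0.159. Nearest to Cd55 was Acot7, an acyl-CoA thioesterase, at 0.135. These distances describe 12 libraries that share their cultures and scaling. The distances to C3 include library 4 of the combined treatment, where C3 deviated by 0.49 and the median densely read gene by 0.40. The part of that shift in these distances was not tested.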

How the data were processed

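Messenger RNA of 12 tubuloid libraries was analysed. Per the submitters' processing notes, build mm10, featureCounts 2.0.3, DESeq2 1.36.0, STAR 2.7.10a, Trimmomatic 0.39 and Picard 2.27.4 were used, in roles not given. The deposited table holds a normalised score per gene. From the steps of the low values, it was taken to be reads divided by a library size factor and rounded. The factors were estimated at 0.569 to 1.11. Where a factor exceeds 1, several read numbers share a value, so whole reads could not be recovered and no count test was run. Columns of other samples numbered 0. Limma-trend (limma 3.58.1, R 4.3.3) was fitted to log2(value + 1) with 3 groups and 12 libraries, for 14558 genes with at least 10 in at least 4 libraries. Fold changes are on that scale, and two-sided p-values were adjusted by Benjamini-Hochberg over all tested genes, at a threshold of 0.05. Coordinates are the table's, and 98.9% equal GENCODE M21, which gave exonic lengths. Within a treatment 1.48% to 2.99% of tested genes had equal values in a pair of libraries. Precision is limited by 4 libraries per treatment and 3.26 to 5.93 M estimated reads. The fit was also run on simulated data. These had no link between same-numbered libraries and no shift by read density, so that run does not cover such features. Named genes are the 4 members, every listed complement gene with a call, the copies C1rb and Cd55b, the 2 nearest patterns of each member, Hmox1 and Fkbp5. A listed complement gene and a nearest pattern are not reported here. Other genes named, and the density classes, were chosen after values were seen. Members and lists were chosen with earlier results of these data known. Pseudocount, filter, scaling, weights, block and omitted libraries were varied. Python 3.11.15, numpy 2.4.6, pandas 2.3.3 and matplotlib 3.10.9 served tables and plots.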

Additional observations from a re-analysis of the deposited data

Results flagged for a closer look

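The vehicle library numbered 1 had a Cfb value of 14, apart from the other vehicle libraries at 19, 20 and 20. Its gap to the nearest was 0.833 of the group's range, over Dixon's critical value for 4 samples. It was 1 of 42 sets of 4 libraries examined (14 genes in 3 treatments), and chance marks about 1 in 20 such sets. All 4 vehicle values lay below every Cfb value of the treated tubuloids, the lowest of which was 84.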

How the results depend on the processing

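Cfb and C1ra rose against vehicle in both comparisons, and C3 with both agents, under every pseudocount, filter, scaling, weighting, block and omitted library tried. C3 with myoglobin against vehicle, which missed the threshold, passed with equal totals (0.23, limma adjusted p 0.0479), quantile normalisation (0.14), a fit of the 2 groups alone (0.24), array weights (0.26) and without library 4 of the combined treatment (range over omitted libraries 0.22 to 0.27). The Cd55 difference between both agents and myoglobin, 0.0057, changed sign with equal totals (-0.023), upper-quartile scaling (-0.013) and array weights (-0.061), and ranged from -0.070 to 0.14 over omitted libraries. Over omitted libraries Cd55 ranged from -0.071 to 0.19 for myoglobin against vehicle, from -0.066 to 0.22 for both agents against vehicle, negative only without vehicle library 1, and Cfb from -0.000891 to 0.10 for both agents against myoglobin. No Cd55 value passed.

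Genes called for both agents against myoglobin, 1016 in all, became 645 in the fit of 2 groups, 1625 with array weights, and 549 to 1279 over omitted libraries, with 616 without myoglobin library 2 and 549 without library 4. For myoglobin against vehicle, 2669 became 4314 with array weights and 2037 to 3789 over omitted libraries, and for both agents against vehicle 4161 became 3130 to 4226. Complement genes that rose with both agents against myoglobin, 0 in all, numbered 1 with quantile normalisation (C4bp) and 0 to 1 over omitted libraries (Masp2 without library 2 and C4bp without library 4 of the combined treatment). Those that fell against vehicle with both agents, 5, became 3 with quantile normalisation and 2 to 5 over omitted libraries. The cause of these shifts was not tested.

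With the replicate number as a block, C1ra passed for both agents against myoglobin (-0.38, limma adjusted p 0.0147), the complement genes that fell there became 2 (C1ra and C1s1), and the genes called became 1788. Deviations of same-numbered libraries correlated at -0.0151 to 0.456, with 9 of 12 pairs over 0.1, against 1 of 36 pairs with other numbers. A library correlated best with its own number in 20 of 24 comparisons with another treatment. This is a hint from the data that numbers may be linked. The main fit stayed unpaired because the labels do not tie numbers to mice and 3 of the 12 pairs were at or below 0.1. With 1 library omitted, ratio tests cannot go below p 0.0571, and the sign-flip test of 4 pairs not below 0.125.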
